A study of Mus musculus with 10 samples.

Results

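Fatty acid synthase (Fasn), stearoyl-CoA desaturase 1 (Scd1), carbonic anhydrase 3 (Car3), apolipoprotein E (Apoe) and lipopolysaccharide binding protein (Lbp) are 5 genes linked to fat synthesis, fat cells and lipid transport. They were chosen by their log2 ratios on these arrays, which swung widely, and no numeric threshold defined a wide swing. Each gene was present on the arrays as 1 oligonucleotide spotted in duplicate, so that the set holds 10 of 15552 spots, or 5 of the 7697 features that remained after duplicate spots were averaged. Because measured values chose the genes, their levels are described here and no p-value is given for them.

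The study compared quadriceps muscle of untreated wild-type male mice of 5 inbred strains, with 2 animals per strain. BL10 stands for C57Bl/10ScSnOlaHsd, DBA for DBA/2OlaHsd, CBA for CBA/CaOlaHsd, BL6 for C57Bl/6JOlaHsd and BALB for BALB/cOlaHsd, all aged 8 weeks at death. Each of 10 arrays compared the Cy5-labelled RNA of an animal with the Cy3-labelled RNA of an animal from a different strain, and by design each animal was placed once in each dye. An animal is named by its strain and number, so that CBA 1 is the first CBA mouse, and no mutation, treatment or transgene separates the groups.

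The array labelled BALB 1 against CBA 2 repeats the values of the array labelled BL6 2 against CBA 1 at every spot, and neither was used. The other 8 arrays form 2 chains that share no animal. The smaller chain runs over 3 arrays from CBA 1 to BL10 1, BALB 2 and BL6 2. The larger runs over 5 arrays from CBA 2 to BL10 2, DBA 1, BL6 1, DBA 2 and BALB 1. In these arrays, CBA was present only in Cy5, and BL6 2 and BALB 1 only in Cy3. All values are log2 ratios of Cy5 over Cy3, centred on the median of the array, and a value of 1 is a doubling. The SD of an array over all features was 0.352 to 0.557, and the SD of the differences between duplicate spots was 0.196 to 0.462. Ratios carry no spot brightness, so the labelled tissue could not be checked through the presence of muscle markers. In whole muscle, a change in the number of cells of a type and a change in RNA per cell cannot be told apart.

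Fasn builds saturated fatty acids from malonyl-CoA, which acetyl-CoA carboxylase (Acaca) supplies, and Scd1 introduces a double bond into the products. Both are induced in liver and fat by feeding and insulin through the transcription factors SREBP1c and ChREBP. Car3 is a cytosolic carbonic anhydrase that is abundant in slow muscle fibres and in fat cells. Apoe carries lipids in plasma lipoproteins and is made by liver and macrophages, and Lbp, an acute phase protein made mainly in liver, hands lipopolysaccharide to CD14.

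The promoters of Fasn and Apoe were among the RefSeq sequences used here (GRCm38.p6, 250 bases before to 50 after the start of the transcript, minus strand), and those of Scd1, Car3 and Lbp were not. They are shown because Fasn moved with Scd1 over the arrays whereas Apoe stood out on a single array. Both strands were searched for 5 motifs: the E-box CACGTG, the CCAAT box CCAAT, the sterol regulatory element core TCACNCCA, the TATA box TATAAA and the GC box GGGCGG. Capitals mark the matches. Fasn lies at chr11:120824498-120824797 and Apoe, at the first of its 3 listed promoters, at chr7:19699139-19699438.
Fasn: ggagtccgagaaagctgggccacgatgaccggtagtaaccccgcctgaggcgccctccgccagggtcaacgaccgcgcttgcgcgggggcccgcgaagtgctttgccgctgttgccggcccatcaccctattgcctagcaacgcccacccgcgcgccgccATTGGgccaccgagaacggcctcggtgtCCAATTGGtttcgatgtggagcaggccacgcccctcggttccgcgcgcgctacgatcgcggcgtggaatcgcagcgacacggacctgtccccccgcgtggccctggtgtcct
Apoe: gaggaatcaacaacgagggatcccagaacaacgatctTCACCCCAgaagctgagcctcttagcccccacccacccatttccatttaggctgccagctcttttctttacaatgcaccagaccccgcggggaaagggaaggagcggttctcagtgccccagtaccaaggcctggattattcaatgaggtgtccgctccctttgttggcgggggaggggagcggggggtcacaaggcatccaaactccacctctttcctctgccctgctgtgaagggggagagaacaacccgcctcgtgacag
The Fasn window held 3 matches to CCAAT, which begin at -90, -62 and -59 relative to the start site, and the last pair, on opposite strands, overlap. This motif was present in 37.4% of the 32851 mouse promoters of this length. The Apoe window held 1 match to the sterol regulatory element core, at -213, a motif present in 4.36% of promoters. The E-box, the TATA box and the GC box had no match in either window, and they occurred in 7.15%, 13.6% and 35.7% of promoters.

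Fasn and Scd1 showed the widest swings of the set and rose and fell together. Fasn spanned 5.63 log2 units over the 8 arrays and Scd1 5.21, which ranked 2 and 5 of 7697 features. The median feature spanned 0.70. Both were highest in CBA 1 against BL10 1 and lowest in BALB 2 against BL6 2.

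In the smaller chain, the Fasn ratio was 2.64 in CBA 1 against BL10 1, 0.78 in BL10 1 against BALB 2 and -2.99 in BALB 2 against BL6 2. The measured Fasn signal was thus 6.25-fold higher in CBA 1 than in BL10 1, and 7.93-fold lower in BALB 2 than in BL6 2. Each fold is a single array and still holds the dye effect of the gene, estimated at -0.66 for Fasn. In the larger chain, the Fasn ratio was -1.57 in CBA 2 against BL10 2, 1.91 in BL10 2 against DBA 1, 0.78 in DBA 1 against BL6 1, 0.17 in BL6 1 against DBA 2 and -1.72 in DBA 2 against BALB 1. BL10 2 was higher than both of its partners. Duplicate Fasn spots differed by at most 0.34, far less than the span between arrays.

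The Scd1 ratio was 3.01 in CBA 1 against BL10 1, 1.18 in BL10 1 against BALB 2 and -2.20 in BALB 2 against BL6 2. In the larger chain it was -1.25 in CBA 2 against BL10 2, 1.99 in BL10 2 against DBA 1, 1.49 in DBA 1 against BL6 1, 0.87 in BL6 1 against DBA 2 and -1.79 in DBA 2 against BALB 1. The sign was that of Fasn on all 8 arrays. The value of BL6 1 against DBA 2 is uncertain, because its duplicate spots were at 0.14 and 1.59. On the other arrays the duplicate spots were closer, with a median difference of 0.16 over all 8.

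**Figure D1:**
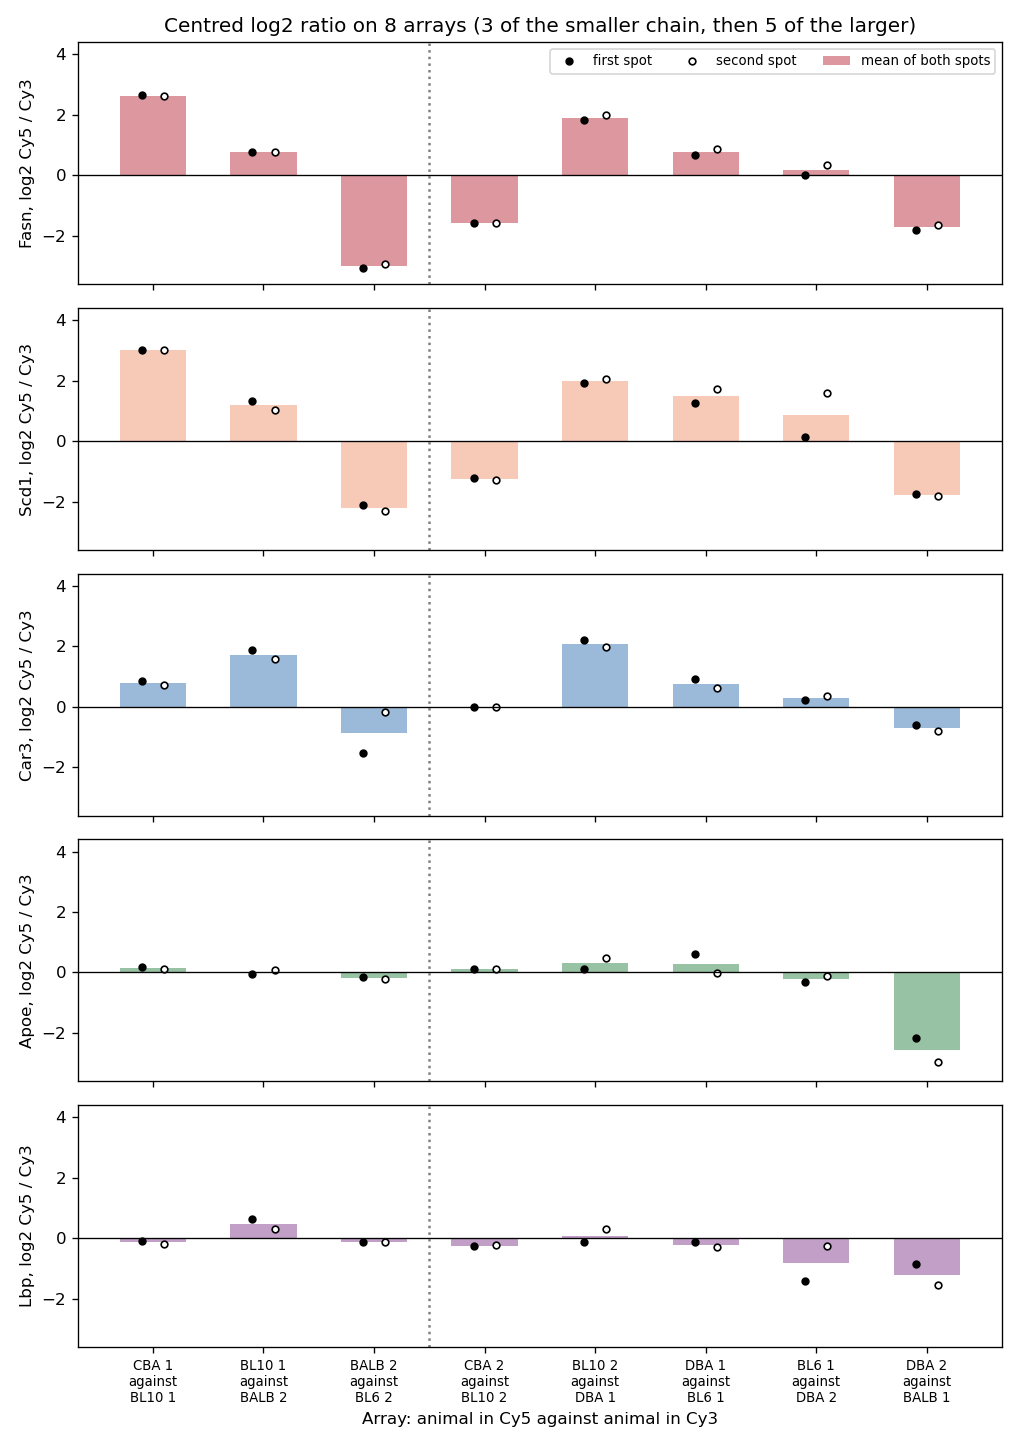
Centred log2 ratio of Cy5 over Cy3 (vertical axis) of the 5 genes on each of the 8 arrays (horizontal axis), with bars for the mean and points for the duplicate spots, and a dotted line between the 3 arrays of the smaller chain and the 5 of the larger. Fasn and Scd1 swing on most arrays, Car3 is highest at 2.09 in BL10 2 against DBA 1, and Apoe stands out only in DBA 2 against BALB 1, at -2.57.

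The same strain pair, CBA against BL10, was hybridised with different animals in the 2 chains and in the same dyes, so that a dye effect of the gene is alike in both. Fasn was 2.64 in one pair and -1.57 in the other, a difference of 4.21. Scd1 was 3.01 and -1.25, a difference of 4.26. Both genes were higher in CBA in the first pair and higher in BL10 in the second. Each pair is 1 array, so an effect of the animals and one of the array cannot be told apart. Over all features, this difference had an SD of 0.24 and a median size of 0.13. Scd1 and Fasn had the largest and the second largest of 7697, and they were the only 2 features that passed 1 in opposite directions. The reversal has no replicate and was not tested. Car3 was 0.79 and 0.00, Apoe 0.15 and 0.12, and Lbp -0.13 and -0.25, so that these 3 genes did not reverse.

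**Figure D2:**
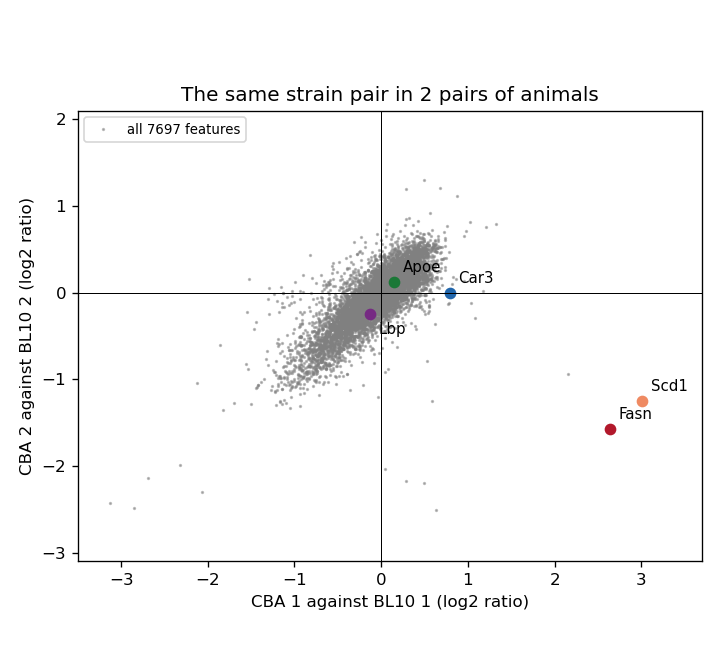
Log2 ratio of CBA 1 against BL10 1 (horizontal axis) and of CBA 2 against BL10 2 (vertical axis), with grey points for all 7697 features and coloured points for the 5 genes. Fasn and Scd1 lie at the far lower right, at 2.64 and -1.57 and at 3.01 and -1.25, with Acaca the grey point nearest to them at 2.15 and -0.94, while Apoe and Lbp lie among the other features.

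Some other fat-linked genes differed between the pairs in the same direction. Acaca, the carboxylase that feeds Fasn, was 2.15 in CBA 1 against BL10 1 and -0.94 in CBA 2 against BL10 2, a difference of 3.09. The 18 features for fatty acid and sterol synthesis did not share it as a set, with 9 below 0 and a median of 0.03. Of these 18, 3 (16.7%) were above 0.5, namely Acaca, Acacb at 0.89 and Me1 at 0.81, against 1.09% of all features. The other Acacb feature was at 0.47, and the lowest value was -0.67 for Srebf1. The 29 features for apolipoproteins and lipid transport had 15 below 0 and a median of -0.06. The fat cell fatty acid binding protein Fabp4 was 0.59 and -1.25, and the haemoglobin gene Hba-a1, a marker of blood, was 0.50 and -2.20. Of 20 features for adipocyte markers, 9 differed by more than 0.5 in the direction of Fasn and none in the other, with a median of 0.40 and a range of -0.14 for Slc2a4 and Adipoq to 1.84 for Fabp4. Of all features, 1.09% passed 0.5 in that direction and the median was 0.00. Single markers were uneven, with Fabp4 at 1.84, Pck1 at 0.96 and Cidec at 0.64. By contrast, Pparg was at 0.10, Cd36 at 0.03, Lep at -0.13 and Adipoq at -0.14. The 9 features for liver and blood markers had a median of 0.26 and ranged from 0.14 for Ahsg to 2.69 for Hba-a1. The part of fat or blood in the muscle samples in the values of Fasn and Scd1 was not tested.

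For the 6 animals that remained in both dyes, the dye effect of a gene was cancelled by averaging the ratio in Cy5 and the ratio in Cy3 with its sign turned, which gives the animal minus the mean of its 2 partners. This value is called the swing of the animal. Neighbours in a chain share an array, so their swings are not independent. CBA 1, CBA 2, BL6 2 and BALB 1 were on 1 array each and have no swing.

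BALB 2 and BL10 2 carried the largest swings of Fasn and Scd1, in opposite directions. In BALB 2, Fasn was 1.89 below the mean of its partners and Scd1 1.69 below, which ranked 1 and 2 of all features in that animal by size. BALB 2 was lower on both of its arrays. In BL10 2, the swing of Fasn was 1.74 and that of Scd1 1.62, and this animal was higher on both arrays. The SD of all features was 0.20 in BALB 2 and 0.17 in BL10 2.

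The other BL10 animal, BL10 1, had swings of -0.93 for Fasn and -0.92 for Scd1, lower than CBA 1 and higher than BALB 2. DBA 2 had swings of -0.94 and -1.33 and was lower than both partners, with ratios of -1.72 and -1.79 against BALB 1 and of 0.17 and 0.87 in BL6 1 against DBA 2. In DBA 1 the swings were -0.56 and -0.25, and in BL6 1 they were -0.31 for both genes. Fasn and Scd1 thus had swings of more than 0.9 in size in 4 of the 6 animals, of which BL10 1 lay between its partners. No single animal carried all of their swing. With BALB 2 left out, the largest swing was still 1.74 for Fasn and 1.62 for Scd1, in BL10 2.

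Few features of any kind had swings past 0.5 in these animals. In BALB 2, 0.559% of all features were below -0.5 and 1.57% above 0.5, against 0 of the 20 adipocyte features, whose range was -0.39 to 0.38, and Acaca was at -0.39. In BL10 2, 0.234% of all features were below -0.5 and 0.598% above 0.5, against 0 and 2 of the 20 adipocyte features. Fabp4 had a swing of 1.23 there, Acaca 1.02 and Hba-a1 2.38, genes picked for their values. The median of the 20 adipocyte features was 0.12 in BL10 2 and -0.05 in BALB 2, with medians of all features of -0.02 and 0.00. Whether these genes play a part in the swings of Fasn and Scd1 was not tested.

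**Figure D3:**
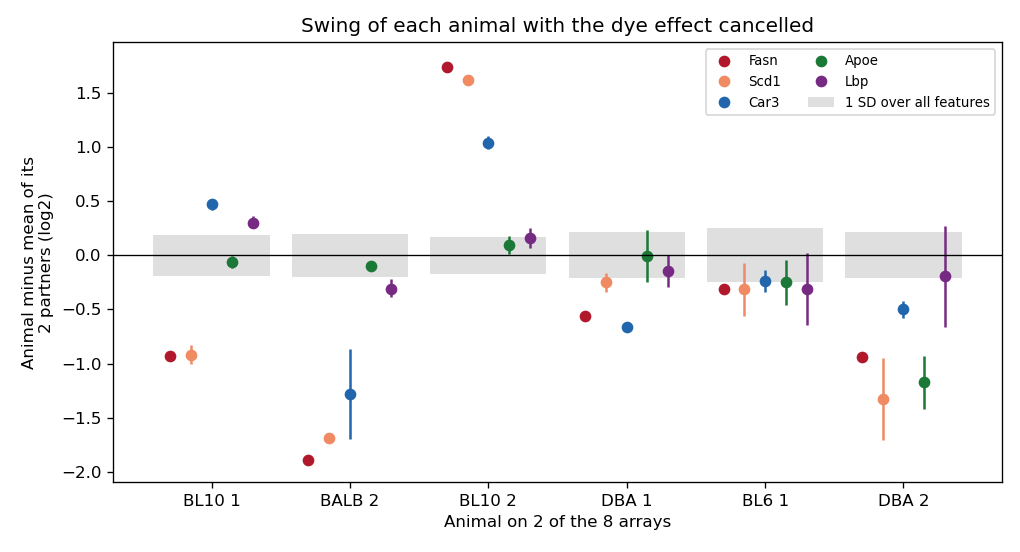
Swing of each of the 6 animals on 2 of the 8 arrays (horizontal axis), as the animal minus the mean of its 2 partners in log2 units with the dye effect cancelled (vertical axis), with points for the mean, lines between the values of the duplicate spots and grey boxes for 1 SD over all features. Fasn is lowest in BALB 2 at -1.89 and highest in BL10 2 at 1.74, Scd1 and Car3 follow it there, and Apoe leaves the grey box clearly only in DBA 2, at -1.17.

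Strain levels were estimated in a linear model that also holds the dye effect of the gene, relative to the mean of the 5 strains, with the animal as the replicate. Fasn was at 2.07 (SE 1.33) in CBA, 0.87 (SE 0.76) in BL10, -0.55 (SE 0.92) in BL6, -1.12 (SE 0.74) in DBA and -1.28 (SE 0.88) in BALB, with n = 2 animals per strain. Scd1 was at 1.78 (SE 1.38) in CBA, 0.78 (SE 0.79) in BL10, -0.53 (SE 0.96) in BL6, -0.95 (SE 0.91) in BALB and -1.08 (SE 0.77) in DBA. The SEs belong to levels set against a shared mean, so they do not give the error of a difference between strains. The strain order was not tested. The residual SD of an array was 1.41 for Fasn and 1.47 for Scd1, so the strain order of both genes rests on a spread nearly as wide as the levels. The range of strain levels was 3.35 for Fasn and 2.86 for Scd1, against a median of 0.45 over all features.

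Car3 was higher in the CBA and BL10 animals than in the others in both chains. Its ratio was 0.79 in CBA 1 against BL10 1, 1.72 in BL10 1 against BALB 2 and -0.85 in BALB 2 against BL6 2. In the larger chain it was 0.00 in CBA 2 against BL10 2, 2.09 in BL10 2 against DBA 1, 0.77 in DBA 1 against BL6 1, 0.30 in BL6 1 against DBA 2 and -0.70 in DBA 2 against BALB 1. Both arrays that set a BL10 animal in Cy5 against another strain showed BL10 higher, by 3.30-fold over BALB 2 and by 4.27-fold over DBA 1. The span over arrays was 2.94, rank 30 of 7697. Duplicate spots disagreed in BALB 2 against BL6 2, at -1.53 and -0.17, so the size of that ratio is uncertain.

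When the ratios were added along each chain and set relative to the mean of its animals with the dye effect removed, Car3 was at 1.26 in CBA 1, 0.46 in BL10 1, -0.44 in BL6 2 and -1.28 in BALB 2. In the larger chain, it was at 1.80 in CBA 2, 1.78 in BL10 2, -0.32 in DBA 1, -0.73 in BALB 1, -1.11 in BL6 1 and -1.42 in DBA 2. In each chain the CBA and the BL10 animal thus lay above all animals of the other strains, and the order of these groups was alike with no dye effect removed. The dye effect of Car3 was only -0.01.

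The fitted Car3 levels were 1.47 (SE 0.50) in CBA, 1.06 (SE 0.29) in BL10, -0.76 (SE 0.35) in BL6, -0.84 (SE 0.33) in BALB and -0.93 (SE 0.28) in DBA, with n = 2 animals per strain. CBA and BL10 lay above the mean of the strains, and BL6, BALB and DBA lay below it. This gap was not tested, because the gene was chosen on these values. The same 2 animals had the largest swings as for Fasn, with -1.28 in BALB 2 and 1.04 in BL10 2, but BL10 1 was above its partners by 0.47. The swing was -0.66 in DBA 1, -0.50 in DBA 2 and -0.24 in BL6 1. On the second spot alone, the largest swing of Car3 was 0.98, in BL10 2 and not in BALB 2.

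Apoe stood out on 1 array. Its ratio was -2.57 in DBA 2 against BALB 1, with duplicate spots at -2.18 and -2.95. The measured signal was thus 5.92-fold lower in DBA 2, with the dye effect of the gene, estimated at -0.61, not removed. This was the second largest ratio of that array by size. On the other arrays, Apoe was at 0.15 in CBA 1 against BL10 1, 0.02 in BL10 1 against BALB 2, -0.19 in BALB 2 against BL6 2, 0.12 in CBA 2 against BL10 2, 0.31 in BL10 2 against DBA 1, 0.28 in DBA 1 against BL6 1 and -0.22 in BL6 1 against DBA 2. These values span 0.53, less than the median feature does over 8 arrays, and the single array held 95.7% of the sum of the squared ratios of Apoe. DBA 2 was close to BL6 1 on its other array with the dye effect not removed, and BALB 1 was on no other array. When the ratios were added along the chain and set relative to the mean of its animals, BALB 1 was at 2.02 and DBA 2 at -0.54. With the dye effect removed, BALB 1 was at 0.50 and DBA 2 was the lowest of the chain at -1.46. Thus DBA 2, BALB 1 and an effect of that array cannot be told apart. The only Apoe swing of size was that of DBA 2, at -1.17, and the others lay between -0.25 and 0.09.

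Other genes were also low on this array. In DBA 2 against BALB 1, 5 of 14 macrophage features were below -0.5, with a median of -0.22 and a range of -1.72 for C1qa to 0.53 for Tyrobp. Lyz1 was at -1.13 but Lyz2 at 0.19, and C1qb and C1qc were at 0.16 and 0.01. Of the 20 adipocyte features, 9 were below -0.5, with a median of -0.30 and a range of -1.96 for Fabp4 to 0.83 for Lep. The array was wide, with an SD of 0.55, and 20.5% of all features were below -0.5. Of 10 slow-fibre features, 9 were above 0 and 6 above 0.5, with a median of 0.63, whereas 17.0% of all features were above 0.5 and their median was -0.01. The part of macrophages, fat cells or fibre types in the Apoe ratio was not tested.

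Lbp had the smallest span of the set over the arrays, and its largest ratios by size lay on the last 2 arrays of the larger chain. Its ratio was -1.21 in DBA 2 against BALB 1, with duplicate spots at -0.86 and -1.56, and -0.83 in BL6 1 against DBA 2, with spots at -1.41 and -0.25. The disagreement of 1.16 in the latter is larger than the ratio itself. On the other 6 arrays Lbp was at -0.13, 0.48 and -0.14 in the smaller chain and at -0.25, 0.08 and -0.21 in the larger, in the order of the chains given above. With the dye effect of the gene, estimated at -0.68, not removed, Lbp was lower in DBA 2 than in BALB 1. It was also lower in BL6 1 than in DBA 2. With the dye effect removed and the ratios added along the chain, BL6 1 was at -0.70, DBA 2 at -0.55 and BALB 1 at -0.01. DBA 2 thus lay between its partners in both cases, but its small step from BL6 1 rests on the array with discordant spots. The span of 1.69 ranked 216 of all features, and 58.2% of the sum of squares lay on DBA 2 against BALB 1. No Lbp swing exceeded 0.31 in size, and the swings of the 6 animals went from -0.31 in BALB 2 and BL6 1 to 0.30 in BL10 1.

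For Apoe and Lbp the fitted strain levels reached beyond the ratios seen on most arrays. Apoe was at 1.19 (SE 0.49) in CBA, 0.44 (SE 0.28) in BL10, 0.16 (SE 0.33) in BALB, -0.88 (SE 0.34) in BL6 and -0.91 (SE 0.27) in DBA. Lbp was at 1.06 (SE 0.24) in CBA, 0.58 (SE 0.14) in BL10, -0.28 (SE 0.16) in BALB, -0.51 (SE 0.13) in DBA and -0.85 (SE 0.17) in BL6, with n = 2 animals per strain. Both genes were chosen on these values, so the gaps between the strains were not tested. The fit took a dye effect of -0.61 for Apoe and -0.68 for Lbp, and CBA was present only in Cy5 on these arrays. The strain order did not hold under other settings. With both identical arrays entered as labelled, CBA was the lowest strain, at -0.71 for Apoe and -0.62 for Lbp. With no dye term, BALB was the highest for Apoe at 0.52, with CBA at 0.26, and BL10 the highest for Lbp at 0.25, with CBA at 0.06.

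The difference between CBA and BL6, which are joined by no array of the 8, was 2.62 (SE 2.09) for Fasn, 2.31 (SE 2.18) for Scd1, 2.23 (SE 0.79) for Car3, 2.07 (SE 0.78) for Apoe and 1.91 (SE 0.38) for Lbp. The direction for Apoe and Lbp depended on the 2 identical arrays: entered as labelled, they turned the difference to -1.02 for Apoe and -0.80 for Lbp, and entered once under either label to -0.88 or -0.02 for Apoe and -0.63 or -0.09 for Lbp. The 5 differences from the 8 arrays are alike in size, but the arrays they rest on are not. Of the 2.07 of Apoe, 1.58 came from DBA 2 against BALB 1, an array that held neither strain. Of the 1.91 of Lbp, 0.99 came from BL6 1 against DBA 2, the array with discordant spots, and 0.75 from DBA 2 against BALB 1. Car3 drew on several arrays, with 1.05 from BL10 1 against BALB 2, 0.82 from BL10 2 against DBA 1, 0.43 from DBA 2 against BALB 1 and 0.41 from CBA 1 against BL10 1. For Fasn, CBA 1 against BL10 1 gave 1.39 and CBA 2 against BL10 2 gave -0.75, whereas for Scd1 they gave 1.58 and -0.59. DBA 2 against BALB 1, which held neither strain, gave 1.06 for Fasn and 1.11 for Scd1. BL6 1 against DBA 2, where the Scd1 spots were also discordant, gave -1.03 for Scd1.

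**Figure D4:**
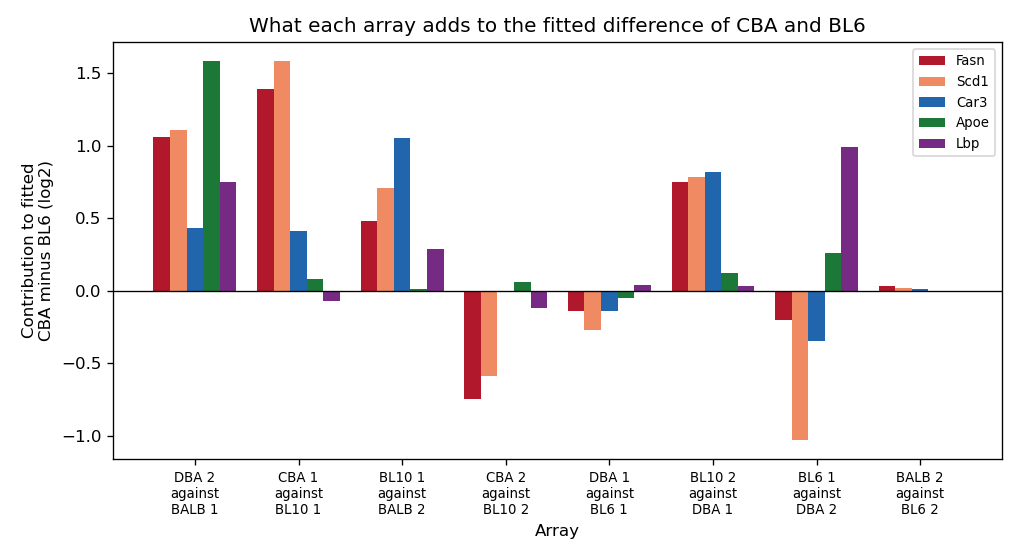
Contribution of each of the 8 arrays (horizontal axis) to the fitted log2 difference of CBA minus BL6 (vertical axis), with 1 bar per gene. The largest part of the Apoe difference, 1.58 of 2.07, comes from DBA 2 against BALB 1, the Lbp difference comes mostly from BL6 1 against DBA 2 at 0.99 and DBA 2 against BALB 1 at 0.75, and Fasn and Scd1 have parts of both signs.

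Leaving out single animals moved this difference for all 5 genes, and for Lbp mainly without BL6 1. These fits held 6 or 7 arrays and had only 1 or 2 residual degrees of freedom, so their estimates are loosely determined. For Apoe it was 0.54 without BALB 1, 0.63 without BALB 2 and 6.81 without BL6 1, and for Lbp it was 1.30, 1.24 and 4.97. For Fasn it was 0.16 without BL6 1, 0.44 without CBA 1, 1.18 without BALB 1, 1.71 without BL10 1 and 1.73 without BALB 2. For Scd1 it was 0.02 without CBA 1, 0.25 without BALB 1, 0.75 without BALB 2 and 0.95 without BL10 1. For Car3 it was between 1.41 without BALB 1 and 2.54 without DBA 1. With no dye term it was 2.19 for Car3 and 1.97 for Scd1, but 1.10 for Fasn, 0.59 for Apoe and 0.31 for Lbp. The Car3 difference was thus the one of the 5 that stayed above 1 under all of these settings.

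The features most like each gene were named by Pearson's r of the centred ratios over the 8 arrays, which share animals and the gene-wise dye effect. Scd1 was the nearest to Fasn of all features and Fasn the nearest to Scd1, with r = 0.987. For Fasn, Arf5 and the gluconeogenic enzyme Pck1 followed, each with r = 0.927, and for Scd1, Acaca with r = 0.927 and Arf5 with r = 0.923. Only Acaca spanned a like range, 3.28, while Arf5 spanned 0.74. For Car3, the mitochondrial enoyl-CoA isomerase Eci1 came first with r = 0.962, then Scd2, a paralogue of Scd1, with r = 0.927 and the amino acid transporter Slc7a3 with r = 0.893. Between Car3 and Fasn, r was 0.829.

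For Apoe, the nearest features were Trabd with r = 0.980, the kinase Ripk3 with r = 0.977 and the chemokine Ccl8 with r = 0.972. Like Apoe, Trabd and Ccl8 were lowest in DBA 2 against BALB 1, at -1.65 and -2.11, so these correlations describe mainly that array. For Lbp, the transcription factor Gli1, the kinase Ikbkb and the integrin Itga8 came first, with r = 0.980, 0.970 and 0.969. Ikbkb spanned only 0.38. Between Apoe and Lbp, r was 0.766, and between Fasn and Apoe it was 0.461.

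Strain differences of the other genes in these pathways were tested by limma's moderated F over all 7697 features, of which 10 (0.130%) passed at an FDR of 10%, while 1077 (14.0%) were under an unadjusted p of 0.05. The former count went from 0 with an ordinary F to 209 with equal array spreads over the settings that kept all animals. Leaving out an animal left a single animal of its strain and 1 or 2 residual degrees of freedom, so those counts are not given. No gene of the lists below passed the FDR in the fit of the 8 arrays, which is the one described here. Of 18 features for fatty acid and sterol synthesis, 1 (5.56%) had an unadjusted p under 0.05, the squalene epoxidase Sqle, highest in CBA at 0.57 and lowest in BALB at -0.37 (adjusted p = 0.348, limma). Acaca had the widest strain levels of this list, from 0.98 in CBA to -0.64 in DBA (adjusted p = 0.822, limma). The transcription factor Srebf1, which drives Fasn and Scd1 in liver, went from 0.26 in BL10 to -0.21 in CBA (adjusted p = 0.658, limma). The median range of strain levels was 0.53 in this list and 0.45 over all features. Fasn and Scd1 were chosen for wide swings, so their wider ranges beside this list are no result about the pathway.

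Of 20 adipocyte features, 4 (20%) had an unadjusted p under 0.05, the lipid droplet gene Cidec, Mgst1, Orm1 and the fatty acid translocase Cd36. Cidec went from 1.14 in CBA to -0.57 in BL6 (adjusted p = 0.182, limma), whereas Cd36 and Mgst1 were highest in BALB and lowest in CBA, so the 4 did not share a direction. Fabp4 had a span of 4.01 over the arrays and strain levels of 0.77 in BL10 to -0.84 in BL6 (adjusted p = 0.559, limma). Of 29 features for apolipoproteins and lipid transport, 6 (20.7%) passed the unadjusted threshold, namely Fabp3, Rbp4, Clu, Lrp1, Cd36 and Vldlr. Another Clu feature did not pass, with an unadjusted p of 0.176 (limma). Fabp3, the fatty acid binding protein of heart and muscle, went from 0.41 in BL10 to -0.40 in CBA (adjusted p = 0.142, limma). The low density lipoprotein receptor relative Lrp1, a receptor for Apoe, went from 0.31 in CBA to -0.35 in BL6 (adjusted p = 0.308, limma).

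Of 10 carbonic anhydrase features beside Car3, 1 (10%) passed the unadjusted threshold, the membrane enzyme Car14, from 0.69 in CBA to -0.73 in BL6 (adjusted p = 0.178, limma). None of the 10 spanned over 2 log2 units across the arrays, which 1.31% of all features did, and the widest spanned 1.30. Of 10 slow-fibre features, 1 (10%) passed it, the calcium buffer Casq2, from 0.29 in BL10 to -0.38 in BL6 (adjusted p = 0.189, limma). Their median r with Car3 over the 8 arrays was -0.22, against -0.06 over all features. Of 19 features for lipopolysaccharide recognition and acute phase, 3 (15.8%) passed it, Saa2, the haemoglobin binding protein haptoglobin (Hp) and Orm1. Hp went from 0.97 in CBA to -0.60 in DBA (adjusted p = 0.272, limma), and Cd14, the receptor to which Lbp delivers lipopolysaccharide, was at 0.34 in CBA and at -0.24 in BALB (adjusted p = 0.567, limma). Of 14 macrophage features, 2 (14.3%) passed it, C1qa and Cd68, and C1qa was at 1.24 in CBA and -0.82 in BL6 (adjusted p = 0.142, limma). Of 9 liver and blood features, 1 (11.1%) passed it, a feature for transferrin (Trf). The other Trf features did not, with unadjusted p of 0.0712, 0.284 and 0.322 (limma). The shares of these lists lay between 5.56% and 20.7%, on both sides of the 14.0% of all features.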

How the data were processed

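Values of 10 arrays were analysed. The authors read the spots in GenePix Pro 3.0, with local background subtraction, and normalized the arrays by VSN. The deposited values were taken as natural log ratios of Cy5 over Cy3, per spot. Neither the log base nor the direction is written in the file, and both were inferred from the VSN method and the dyes in the labels. They were converted to log2, centred on the median of each array, and duplicate spots, 648 places apart, were averaged to 7776 features. The 80 features of a control oligonucleotide were averaged to 1, which left 7697. Of these, 6752 were named through the annotation of the array updated with GRCm38.p6.

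Strains were fitted in limma 3.58.1 (R 4.3.3) with a dye term for each gene, and the variance between animals was set at 0.449 of that between arrays, a value common to all genes from restricted maximum likelihood. This left 3 residual degrees of freedom. P-values were adjusted over the 7697 features by the method of Benjamini and Hochberg. The p-values set strain differences against a residual spread of the arrays, pooled over the strains and moderated over the features. This spread mixes variation between animals with error between arrays, at the common ratio of 0.449. No array joined the 2 animals that the labels number in a strain, so the spread within each strain was not measured directly. Spot brightness and depth are not in the values, so the number of arrays limits the precision. The steps were tested on simulated data. The 5 genes, the gene lists and the rule for named genes (the 3 most alike features, the list genes with an unadjusted p under 0.05 and those with the widest strain levels) were chosen with earlier results of these data known. Genes named for their values on single arrays, such as Fabp4, Hba-a1, Lyz1 and Ccl8, were picked after their values were seen. The alternatives were the identical arrays entered under either or both labels, no centring, equal array spreads, either spot alone, no dye term, independent arrays, an ordinary F and leaving out each animal. Plots were made with matplotlib 3.10.9 under Python 3.11.15.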

Additional observations from a re-analysis of the deposited data

Results flagged for a closer look

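Fasn and Scd1 ran in opposite directions in the 2 pairs of animals of the strains CBA and BL10. CBA 1 against BL10 1 minus CBA 2 against BL10 2 was 4.21 for Fasn and 4.26 for Scd1 on the log2 scale, with all duplicate spots of each pair on the same side of 0. Each pair is a single array, and the difference was not tested.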

How the results depend on the processing

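The largest swing of Fasn stayed between 1.74 and 2.06 under all 17 alternatives, that of Scd1 between 1.62 and 1.91 and that of Car3 between 0.98 and 1.70, with BALB 2, BL10 2 or, for Scd1 on the second spot, DBA 2 as the animal. The largest swing of Apoe was 2.29, in BALB 1, with the identical arrays entered as labelled or once as BALB 1 against CBA 2, and 0.10 to 1.17 when an animal was left out. That of Lbp was 1.31 in the same settings, 0.77 with the values entered once under the label BL6 2 against CBA 1, and 0.64 and 0.66 on the first and second spot.

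The difference of CBA minus BL6 depended on the identical arrays. With both entered as labelled it was 0.30 for Fasn, 0.64 for Scd1, 1.42 for Car3, -1.02 for Apoe and -0.80 for Lbp. With the values entered once as BL6 2 against CBA 1 it was 0.67 for Fasn, 0.87 for Scd1, 1.54 for Car3, -0.88 for Apoe and -0.63 for Lbp, and as BALB 1 against CBA 2 it was 0.69, 1.06, 1.61, -0.02 and -0.09. Apoe and Lbp thus turned in sign, and the cause was not tested. With no dye term it was 1.10 for Fasn, 0.59 for Apoe and 0.31 for Lbp. For Lbp it was 1.57 with equal array spreads, 2.38 on the first spot and 1.41 on the second. Leaving out animals gave 0.16 to 3.22 for Fasn, 0.02 to 3.11 for Scd1, 1.41 to 2.54 for Car3, 0.54 to 6.81 for Apoe and 1.24 to 4.97 for Lbp. The fit without DBA 2 could not be made, because the dye effect is then not estimable.

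The number of features past an FDR of 10% was 10, and 6 with both identical arrays, 40 as BL6 2 against CBA 1, 209 with equal array spreads, 2 on the first spot, 3 with no dye term, 0 with an ordinary F in limma, and 4 (without BL6 2) to 3355 (without BALB 2) when an animal was left out. The number with an unadjusted p under 0.05 was 1077, and 650 with the values as BALB 1 against CBA 2, 229 with no dye term, and 455 (without BL10 1) to 3570 (without BALB 2). Counts in the gene lists moved with these, as from 0 to 4 of 20 for adipocyte features over the settings that kept all animals. No paired analysis was possible because the numbers of the animals only name them, and each array already sets a pair of strains side by side. Spot brightness is unknown, so which ratios are limited by background cannot be given.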

Other observations

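The values that the pair of identical arrays share were -0.19 for Fasn, -0.18 for Scd1, -1.10 for Car3, 2.02 for Apoe and 1.40 for Lbp. Apoe ranked 5 by size of all features there, and Ccl8 was the highest at 2.59. Both labels would close a chain, so the shared value can be set beside the sum of the chain with its sign turned. Read as BL6 2 against CBA 1 with no dye effect removed, that sum was -0.44 for Fasn, -1.99 for Scd1, -1.66 for Car3, 0.02 for Apoe and -0.21 for Lbp. Read as BALB 1 against CBA 2, it was 0.43 for Fasn, -1.30 for Scd1, -2.46 for Car3, 2.07 for Apoe and 2.41 for Lbp. With the dye effect of the 8 arrays taken into account, the sums for Apoe were -2.41 and -1.57 and those for Lbp -2.91 and -1.65, of the opposite sign to the shared values. Over all 7697 features, the sums correlated with the shared values at r = -0.792 (BL6 2 against CBA 1) and -0.737 (BALB 1 against CBA 2) without the dye effect and at 0.361 and 0.492 with it, so that a match of 1 gene without the dye effect says little. Macrophage features on this array had a median of 0.29, with 5 of 14 above 0.5 against 2.49% of all features. They ranged from -0.22 for Cd14 to 1.43 for Lyz1, with Lyz2 at 0.26. Which animals these values come from was not tested.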
